A study of Homo sapiens with 22 samples.

Results

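The comparison described here sets 4 libraries labelled T164A against 6 libraries of wild-type NKX3.1, out of 22 RNA-seq libraries in the series. The libraries were taken by their titles, and every gene with a level above 3 in at least 4 of the 10 libraries was tested, 20214 of 49149 named genes. All 10 were titled as RWPE1, a human prostate epithelial line immortalized with a papillomavirus, which carries basal cell keratins and is not a tumour line. The T164A libraries were labelled as cells with the NKX3.1 form T164A, in which 1 amino acid of the homeodomain is exchanged, and the NKX3.1 libraries as cells with the wild-type form. The design text speaks of overexpression of NKX3.1 and names an altered pTRIPZ for the empty vector, does not mention T164A, and does not say whether a line is 1 clone. Every title names paraquat, a redox-cycling compound that makes cells produce superoxide, and no untreated library was analysed here. The labels give no dose or duration of the treatment. Another 6 libraries with an empty vector and 6 with the NKX3.1 form R52C, also paraquat by title, are used below only for levels set beside the comparison.

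NKX3.1, a transcription factor with a homeodomain, is made by luminal cells of the prostate, restrains their proliferation and is often lost early in prostate cancer. The homeodomain is the part that binds DNA. The series title places NKX3.1 in mitochondria, the organelles which are a main source of superoxide and where a small circular genome encodes 13 subunits of the respiratory chain.

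The deposited values are normalized levels on a log2 scale, and a level of 3 was taken as the floor of detection. Differences are given as T164A minus NKX3.1 on that scale, so that a difference of 1 is a 2-fold change. Depth in reads is unknown, since the table holds no counts. The linear values summed to between 18738677 and 18870535 in T164A-labelled libraries and to between 19370792 and 20044097 in NKX3.1 libraries. Among genes at levels of 8 to 10, the median SD between libraries of a group was 0.0641 in T164A-labelled libraries and 0.0766 in NKX3.1 libraries. A treatment tag is missing from 3 of the 4 libraries labelled T164A, and the only build listed for these 4 is mm9, a mouse genome. These features coincide with the group, so the way the libraries were made or processed and the group cannot be told apart. Since no label tells whether the libraries of one group were separate cultures, the p-values reflect the spread among these libraries alone, and that spread may be technical. Groups are called by their labels, and directions below are between libraries as labelled.

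Whether the 4 T164A-labelled libraries are of the labelled line was not tested. IRS4, SALL1 and PAX2, listed below with genes of embryonic kidney and neural tissue, averaged 13.64, 9.48 and 6.36 in T164A-labelled libraries, and their means in each of the other groups were under the floor of 3. Every difference below is subject to this. Basal markers were detected in both groups. KRT5, the keratin of basal epithelium, stood at 15.46, 15.44, 15.61 and 15.47 in T164A-labelled libraries, against 16.42 at the lowest, 16.54 at the median and 16.62 at the highest in NKX3.1 libraries. TP63, the transcription factor of basal cells, stood at 11.06, 11.05, 11.28 and 11.10 in T164A-labelled libraries, against 11.94 at the lowest, 11.998 at the median and 12.02 at the highest in NKX3.1 libraries. Neither gene overlapped between the groups, and KRT5 fell by 1.04 (adjusted p = 2.59e-15, limma with Benjamini-Hochberg adjustment over all genes tested, as for every adjusted p below) and TP63 by 0.87 (adjusted p = 1.73e-14) in T164A-labelled libraries. Both calls were lost when all 22 libraries shared 1 estimate of the spread (adjusted p = 0.283 for KRT5 and 0.0977 for TP63). In that fit the R52C libraries spread from 0.55 to 6.95 for KRT5 and from -0.71 to 2.98 for TP63. These levels lie under those of both groups compared here. Whether the R52C libraries are of the labelled line was not tested either, and every R52C level given below is subject to this. Nor was it tested whether the NKX3.1 and empty vector libraries hold cells of the labelled line alone. Their levels, those of luminal genes included, are subject to this as well.

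**Figure D1:**
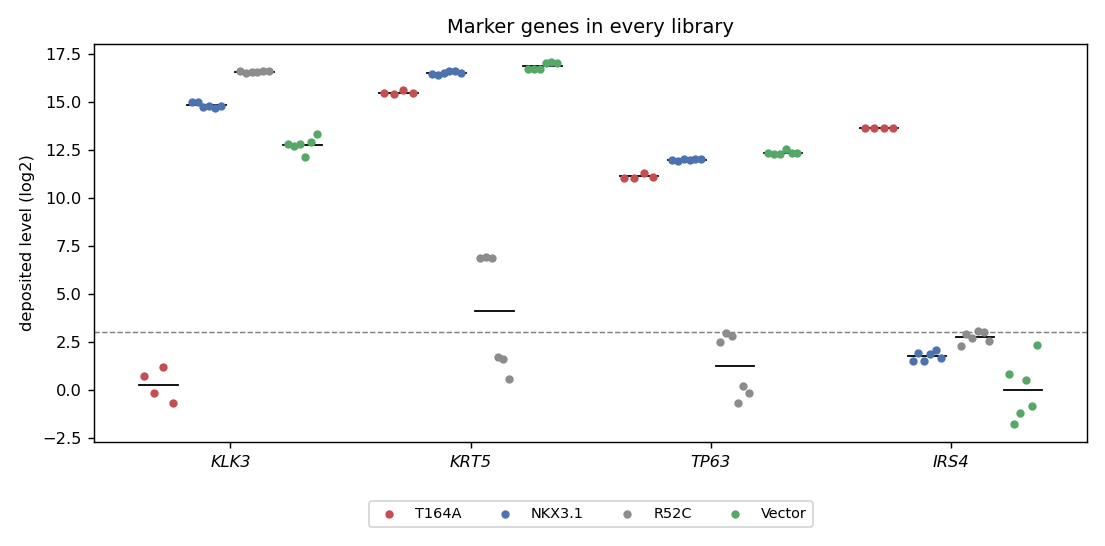
Deposited log2 level (vertical axis) of 4 genes in each library, with points for libraries, black bars for group means and the floor of 3 as a dashed line. KLK3 is under the floor only in T164A-labelled libraries, and IRS4 is above it in all 4 of them.

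Most of the measured genes differed between the groups. Of 20214 genes, 17305 were called at an adjusted p under 0.05, a share of 85.6%, with 8652 higher and 8653 lower in T164A-labelled libraries, which is 42.8% each. A rise of at least 2-fold was called for 3603 genes (17.8%) and a fall of at least 2-fold for 4262 (21.1%). The groups did not overlap in 15641 genes (77.4%). The size of the difference, whatever its sign, had quartiles of 0.333, 0.752 and 1.51, and the signed median over all genes was -0.01. When libraries were rescaled to a common median, the median difference was -0.14, so differences of about that size depend on the scaling. Given these shares, a call on its own sets a gene little apart here, and the text goes by sizes and by genes that are at the floor in 1 group. Every count of list members that rose or fell below is to be read beside the 42.8% each way.

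Over the tested genes, levels in pairs of libraries correlated at a Pearson r of 0.9885 to 0.9893 within T164A-labelled libraries and 0.9889 to 0.9907 within NKX3.1 libraries. Between the groups r was 0.8129 to 0.8182. NKX3.1 libraries correlated with empty vector libraries at 0.9726 to 0.9837, and T164A-labelled libraries with empty vector libraries at 0.8089 to 0.8245. For R52C with empty vector libraries r was 0.7853 to 0.8149. These values describe 20214 genes that share the normalization of 1 table, and genes are not independent replicates.

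**Figure D2:**
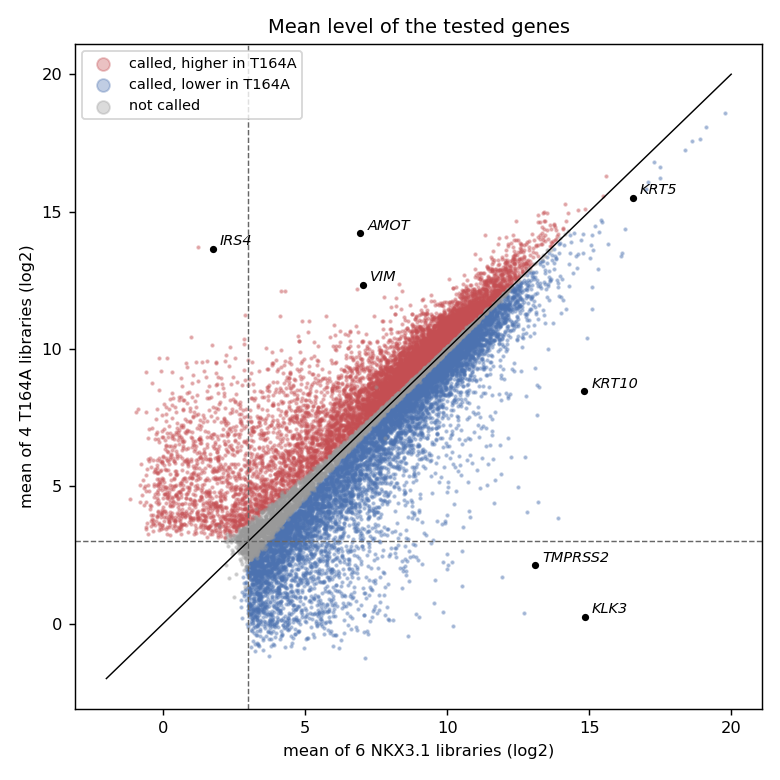
Mean level of tested genes in the 6 NKX3.1 libraries (horizontal axis, log2) and in the 4 T164A-labelled libraries (vertical axis, log2), coloured by call, with the floor of 3 dashed and a few genes marked. Genes lie along the diagonal with arms at the floor on both sides, where KLK3 and TMPRSS2 are under 3 in T164A-labelled libraries and IRS4 is under 3 in NKX3.1 libraries.

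Genes detected in 1 group and at the floor in the other separated the libraries most plainly. In 835 genes (4.13% of those tested) all NKX3.1 libraries were under 3, and since a gene needed 4 libraries above 3 to be tested, all 4 T164A-labelled libraries were then above it. Of these 835, the empty vector libraries were all under 3 for 739 and the R52C libraries for 696. In the other direction, 1445 genes (7.15%) were under 3 in every T164A-labelled library, and 990 of them were above 3 in every NKX3.1 library. Of the 990, all empty vector libraries were above 3 for 721 and all R52C libraries for 652. The mean of the R52C libraries was above that of the NKX3.1 libraries for 535 of the 990. Which genes could enter these counts was set by the filter, so the counts describe the libraries and were not tested.

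The 12 genes with the highest level in T164A-labelled libraries among those at the floor in NKX3.1 libraries included IRS4, SLITRK5 and CITED1. The choice fixes the direction for these genes and for the set at the floor in T164A-labelled libraries, so their values are a description and no p is given. IRS4, an insulin receptor substrate, stood at 13.65, 13.64, 13.63 and 13.63 in T164A-labelled libraries, against 1.48 at the lowest, 1.77 at the median and 2.05 at the highest in NKX3.1 libraries. It was at least 1594-fold higher in T164A-labelled libraries, with NKX3.1 values raised to the floor for this bound, as in every bound below. SLITRK5, a neuronal transmembrane protein, stood at 10.12, 10.14, 10.09 and 10.16 in T164A-labelled libraries, against 1.16 at the lowest, 1.84 at the median and 2.11 at the highest in NKX3.1 libraries, and was at least 140-fold higher. CITED1, a transcriptional coactivator of kidney progenitors, was at least 133-fold higher, with 10.04, 10.08, 10.04 and 10.05 in T164A-labelled libraries and 1.89 at the lowest, 2.35 at the median and 2.73 at the highest in NKX3.1 libraries. No library of one group reached the other group for any of the 3 genes. The protocadherin PCDH10, LRCH2 and the developmental factor DACH1 were at least 110-fold, 103-fold and 102-fold higher in T164A-labelled libraries. NR2F1, an orphan nuclear receptor, was at least 95.5-fold higher, and SALL1, a factor of kidney development, at least 89.2-fold. AFF2, the neural adhesion molecule NCAM1 and the chromatin organizer SATB1 were at least 91-fold, 89.6-fold and 82-fold higher. Over the genes named, the means of the empty vector libraries were between -0.43 and 2.57.

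The 12 genes with the highest level in NKX3.1 libraries among those at the floor in T164A-labelled libraries were led by KLK3 and TMPRSS2. KLK3, which encodes prostate-specific antigen, stood at 0.72, -0.17, 1.18 and -0.70 in T164A-labelled libraries, against 14.72 at the lowest, 14.78 at the median and 15.02 at the highest in NKX3.1 libraries, and was at least 3667-fold lower in T164A-labelled libraries. TMPRSS2, a membrane serine protease, stood at 1.39, 1.76, 2.86 and 2.45 in T164A-labelled libraries, against 12.97 at the lowest, 13.05 at the median and 13.27 at the highest in NKX3.1 libraries, and was at least 1097-fold lower. KLK2, the kallikrein that can activate prostate-specific antigen, was at least 489-fold lower, with 1.21, 1.05, 1.53 and 2.93 in T164A-labelled libraries and 11.82 at the lowest, 11.85 at the median and 12.15 at the highest in NKX3.1 libraries. All T164A-labelled values of the 3 genes were under the floor and all NKX3.1 values were far above it. PEG3, an imprinted zinc finger gene, was at least 836-fold lower in T164A-labelled libraries, and the membrane serine protease HPN at least 149-fold. SLC44A4, GPR158, the potassium channel KCNN2 and PRAC1, a gene of prostate and hindgut, were at least 131-fold, 127-fold, 114-fold and 94.2-fold lower. FLG, which encodes filaggrin of the epidermis, was at least 145-fold lower and the desmosomal cadherin DSG1 at least 115-fold. HSPB1P2 was at least 184-fold lower, and as a pseudogene it can share reads with HSPB1, which makes its level uncertain.

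The levels of the other libraries differed between the prostate and the epidermal genes of that set. In R52C libraries KLK3 averaged 16.58, TMPRSS2 14.92 and KLK2 13.76, and in empty vector libraries 12.79, 11.12 and 9.98. In R52C libraries FLG averaged 3.82 and DSG1 2.999, and in empty vector libraries 10.34 and 10.19. These prostate genes thus had their highest mean in R52C libraries and stood higher in NKX3.1 than in empty vector libraries, while the epidermal pair stood near its NKX3.1 level in empty vector libraries. The part of this gradient in the comparison of T164A with NKX3.1 was not tested.

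**Figure D3:**
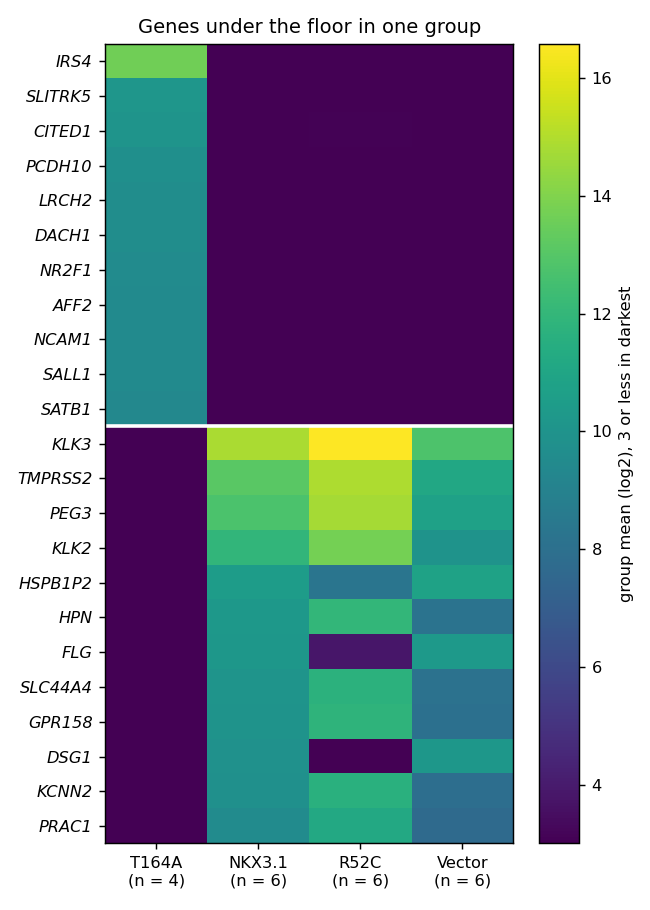
Group means (log2, colour scale from the floor of 3) of the genes named from the 12 highest under the floor in every NKX3.1 library (above the white line) and the 12 highest under the floor in every T164A-labelled library (under it). The upper genes are dark outside T164A-labelled libraries, with group means of 3.07 or less, and the lower genes are bright in both NKX3.1 and empty vector libraries.

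Among genes above 5 in all 10 libraries, the largest rises were led by AMOT, and UCHL1, FHL1 and VIM followed. AMOT, which encodes angiomotin, a scaffold of the Hippo pathway, stood at 14.22, 14.21, 14.18 and 14.21 in T164A-labelled libraries, against 6.67 at the lowest, 6.94 at the median and 7.14 at the highest in NKX3.1 libraries. It rose by 7.26 in T164A-labelled libraries (SE 0.067, adjusted p = 5.86e-25), and the groups lay far apart. VIM, the intermediate filament of mesenchymal cells, stood at 12.36, 12.34, 12.33 and 12.29 in T164A-labelled libraries, against 6.73 at the lowest, 7.07 at the median and 7.20 at the highest in NKX3.1 libraries, a rise of 5.30 (SE 0.066, adjusted p = 4.71e-23). UCHL1, a deubiquitinase abundant in neurons, rose by 5.48 (SE 0.092, adjusted p = 3.34e-21). The muscle proteins FHL1 and FLNC rose by 5.35 and 4.86, and the membrane skeleton gene ADD2 by 4.66. DPYSL5 rose by 4.95, POU4F1, a factor of sensory neurons, by 4.58, NEFL, the light neurofilament, by 4.44 and DPYSL3 by 4.15. The phosphatase DUSP9 rose by 4.16. In each of these genes the 4 T164A-labelled libraries lay above the 6 NKX3.1 libraries, as the naming rule demands, and the rule demands the call as well.

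Among the same genes, above 5 in all 10 libraries, the falls were led by S100A8, CLCA2 and KRT10. KRT10, a keratin of suprabasal epidermis, stood at 8.43, 8.57, 8.47 and 8.33 in T164A-labelled libraries, against 14.69 at the lowest, 14.84 at the median and 14.90 at the highest in NKX3.1 libraries. It fell by 6.36 in T164A-labelled libraries (SE 0.045, adjusted p = 2.43e-26), with no overlap. The naming rule demands the call and the lack of overlap for every gene of this set. S100A8, which encodes a subunit of calprotectin, stood at 6.20, 5.94, 6.15 and 6.02 in T164A-labelled libraries, against 12.56 at the lowest, 12.76 at the median and 12.97 at the highest in NKX3.1 libraries, and fell by 6.67 (SE 0.063, adjusted p = 6.67e-25). S100A9, its partner, fell by 5.56. CLCA2, an epithelial regulator of chloride conductance, fell by 6.44, the lipid transporter ABCA12 by 5.62 and the protease inhibitors SPINK5 and SLPI by 5.37 and 5.36. LCN2, an iron-chelating defence protein, fell by 5.19, SAMD9 by 5.47 and the death ligand TNFSF10 by 5.10. MME, the neprilysin of luminal cells, fell by 6.18.

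The luminal programme was lower in T164A-labelled libraries in most of its measured genes. Of 22 prostate luminal genes, 19 fell, every one by more than 2-fold (21.1% over all genes), and 3 rose. The median difference was -4.01, or -3.82 with values under 3 raised to 3, beside -0.01 over all genes. FOLH1, the prostate-specific membrane antigen, stood at 4.66, 4.30, 4.24 and 4.51 in T164A-labelled libraries, against 13.09 at the lowest, 13.15 at the median and 13.32 at the highest in NKX3.1 libraries, a fall of 8.76 (SE 0.067, adjusted p = 5.48e-26). STEAP2, a metalloreductase, fell by 4.64 and NDRG1, an androgen and stress responsive gene, by 2.01. TRPM8, the cold channel of the prostate, was under 3 in every T164A-labelled library and at least 12.6-fold lower. HOXB13, the homeobox factor of the prostate, stood at 8.07, 8.02, 8.13 and 8.05 in T164A-labelled libraries, against 10.47 at the lowest, 10.62 at the median and 10.94 at the highest in NKX3.1 libraries, and fell by 2.61. The members that rose were FKBP5, a chaperone of steroid receptors, at 0.97, and the simple keratins KRT18 and KRT8 at 0.64 and 0.16, named after their values were seen.

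The list as a whole followed the same gradient over the other libraries. Its summed level was 13.91 to 13.96 in T164A-labelled libraries and 16.63 to 16.82 in NKX3.1 libraries, with 18.13 to 18.15 in R52C libraries and 15.54 to 15.90 in empty vector libraries. In bulk RNA, fewer cells of a type and less RNA per cell cannot be told apart.

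KLK3 is shown with its promoter because it had the largest bounded difference of the named genes. The 250 bases before its start lie at chr19:50854665-50854914 on the plus strand of GRCh38.p14 and come from RefSeq, with capitals for the hexamer AGAACA found in androgen response elements.
KLK3: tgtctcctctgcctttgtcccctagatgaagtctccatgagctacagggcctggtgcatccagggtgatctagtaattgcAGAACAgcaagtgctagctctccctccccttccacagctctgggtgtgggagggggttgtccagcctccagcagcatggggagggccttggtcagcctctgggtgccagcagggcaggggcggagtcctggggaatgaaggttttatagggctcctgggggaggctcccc
The hexamer, searched on both strands, was in the promoters of 1 of the 13 luminal genes that matched a RefSeq entry (7.69%), beside 7.81% of the 11557 promoters of tested genes. The luminal genes thus carried it about as often as other tested genes in this window.

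Squamous differentiation was lower in T164A-labelled libraries in every gene listed. All 22 of 22 genes fell, and the median difference was -5.57, or -5.47 with values raised to the floor. KRT16, a keratin of stressed and activated epidermis, stood at 10.39, 10.39, 10.36 and 10.40 in T164A-labelled libraries, against 14.84 at the lowest, 14.88 at the median and 15.06 at the highest in NKX3.1 libraries, a fall of 4.53 (SE 0.035, adjusted p = 5.48e-26). KRT1, the partner of KRT10, stood at 4.09, 3.98, 3.85 and 3.45 in T164A-labelled libraries, against 13.76 at the lowest, 13.93 at the median and 14.03 at the highest in NKX3.1 libraries, a fall of 10.06 (SE 0.084, adjusted p = 1.71e-25). SPRR2A and LOR, precursors of the cornified envelope, were under 3 in every T164A-labelled library and at least 21-fold and 1.6-fold lower. The summed level was 12.44 to 12.53 in T164A-labelled libraries and 17.12 to 17.35 in NKX3.1 libraries, beside 9.09 to 9.61 in R52C libraries and 17.43 to 17.53 in empty vector libraries. The R52C libraries were thus lowest for the list, and KRT1 and KRT16 averaged 1.51 and 2.62 there.

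Basal genes moved both ways. Of 21 basal genes, 8 rose and 12 fell, not far from the 42.8% of all genes called each way, with a median of -0.34. DSG3, the desmoglein of basal layers, stood at 9.25, 9.19, 9.44 and 9.39 in T164A-labelled libraries, against 13.03 at the lowest, 13.08 at the median and 13.12 at the highest in NKX3.1 libraries, and fell by 3.76 (adjusted p = 4.94e-24). The desmocollin DSC3 also fell, with 11.33 ± 0.057 in T164A-labelled libraries and 13.13 ± 0.041 in NKX3.1 libraries (SD), and the hyaluronan receptor CD44 fell by 1.53. The basal genes named in the text all fell, and they do not stand for the list. By at least 2-fold, 4 members rose and 8 fell (17.8% and 21.1% over all genes), and the largest rise was 2.90. The summed level of the list was 17.57 to 17.64 in T164A-labelled libraries and 17.89 to 18.02 in NKX3.1 libraries, beside 13.99 to 14.07 in R52C and 18.20 to 18.48 in empty vector libraries.

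Genes of epithelial junctions fell. Of 16 adhesion genes, 15 fell, 14 of them by at least 2-fold (21.1% over all genes), and 1 rose, with a median of -1.95. CDH1, which encodes E-cadherin, stood at 11.90, 11.97, 11.78 and 11.90 in T164A-labelled libraries, against 13.98 at the lowest, 14.00 at the median and 14.02 at the highest in NKX3.1 libraries, a fall of 2.11 (SE 0.031, adjusted p = 4.88e-22). The desmosome genes DSP and PKP1 fell by 2.73 and 2.64, and the tight junction gene CLDN1 by 3.56. CLDN3, another claudin, was under 3 in every T164A-labelled library and at least 46.7-fold lower. The member that rose was PKP2, a desmosomal plakophilin, at 1.15, named after its value was seen.

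Mesenchymal genes rose more often than they fell. Of 17 genes, 11 rose, 10 of them by at least 2-fold (17.8% over all genes), 5 fell and 1 was not called, with a median of 1.46. SPARC, a secreted matrix protein, stood at 10.57, 10.46, 10.47 and 10.50 in T164A-labelled libraries, against 6.37 at the lowest, 6.48 at the median and 6.75 at the highest in NKX3.1 libraries, a rise of 3.99 (adjusted p = 3.13e-21). FN1, which encodes fibronectin, rose by 1.94 (adjusted p = 3.04e-21), while TGFBI, a matrix protein induced by TGF-beta, fell by 2.32 (adjusted p = 1.84e-21). The summed level of the list overlapped between the groups, at 15.00 to 15.09 in T164A-labelled libraries and 14.90 to 15.02 in NKX3.1 libraries, beside 11.89 to 11.999 in R52C and 15.22 to 15.38 in empty vector libraries.

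Genes of embryonic kidney and neural tissue were mostly higher in T164A-labelled libraries. Of 20 listed genes, 17 could be tested, 16 rose and none fell. The median was 4.51, or 3.55 with values raised to the floor, and 6 of the genes passed the filter through the T164A-labelled libraries alone. Of these, IRS4 and SALL1 were given above. POU3F2, a neural POU factor, was at least 73.1-fold higher in T164A-labelled libraries, with 9.25, 9.20, 9.08 and 9.24 there and -1.98 at the lowest, 0.00 at the median and 1.47 at the highest in NKX3.1 libraries. The kidney factors PAX2, EYA1 and WT1 were at least 10.3-fold, 8.63-fold and 11.7-fold higher. The summed level was 14.53 to 14.57 in T164A-labelled libraries and 10.21 to 10.28 in NKX3.1 libraries, beside 10.45 to 10.68 in empty vector and 8.71 to 8.82 in R52C libraries. The part of cells of another type in these levels was not tested.

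HOX genes, the clustered homeobox factors that mark position along the body axis, differed broadly. Of 33 tested, 28 rose, 2 fell and 3 were not called, with a median of 2.24, or 2.18 with values raised to the floor. HOXB9 stood at 11.09, 10.998, 11.02 and 11.01 in T164A-labelled libraries, against 4.31 at the lowest, 4.95 at the median and 5.28 at the highest in NKX3.1 libraries, and rose by 6.13 (adjusted p = 6.00e-20). HOXD13, a gene of the distal body axis, rose by 5.54 (adjusted p = 3.00e-21) and HOXA13 by 2.85 (adjusted p = 1.20e-20). HOXB8, HOXB7 and HOXB2 were under 3 in every NKX3.1 library and at least 42.7-fold, 24.8-fold and 2.68-fold higher in T164A-labelled libraries. HOXB13, at the end of the same cluster as these 3, was 1 of the 2 members that fell. HOX genes can overlap with antisense transcripts, and the sources used here do not say whether strand was used, so the part of such transcripts was not tested.

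Other cell types were represented by few genes. Of 9 neuroendocrine genes, 6 could be tested, and 4 rose and 2 fell. Of the 6, 3 passed the filter through the T164A-labelled libraries alone, which fixes their direction. SYP, a synaptic vesicle protein, rose by 2.61 and ENO2, the neuronal enolase, fell by 0.81, while INSM1, a neuroendocrine zinc finger factor, was at least 9.46-fold higher in T164A-labelled libraries. CHGA and SCG2, granins of secretory vesicles, were near the floor in both groups. Of 11 fibroblast and endothelial genes, 7 were tested, 4 rose and 2 fell, and the median was 2.95, or 0.88 with values raised to the floor. Of the 7, 4 likewise passed the filter through the T164A-labelled libraries alone, so their direction and much of that median were fixed by the filter. The collagen genes split, with COL3A1 at least 12.8-fold higher and COL1A1 lower by 1.37. LUM, PDGFRA and KDR were under 3 in every NKX3.1 library and averaged 5.04, 4.73 and 3.88 in T164A-labelled libraries, and VWF was at least 9.04-fold lower. Of 8 immune genes, 4 were tested, and 1 rose and 3 fell. CD14, CD68 and CD74 fell by 2.09, 0.61 and 0.86. The member that rose did so by more than 2-fold and was under 3 in every NKX3.1 library. PTPRC, CD3E, LYZ and HLA-DRA, defining genes of immune cells, did not pass the filter.

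**Figure D4:**
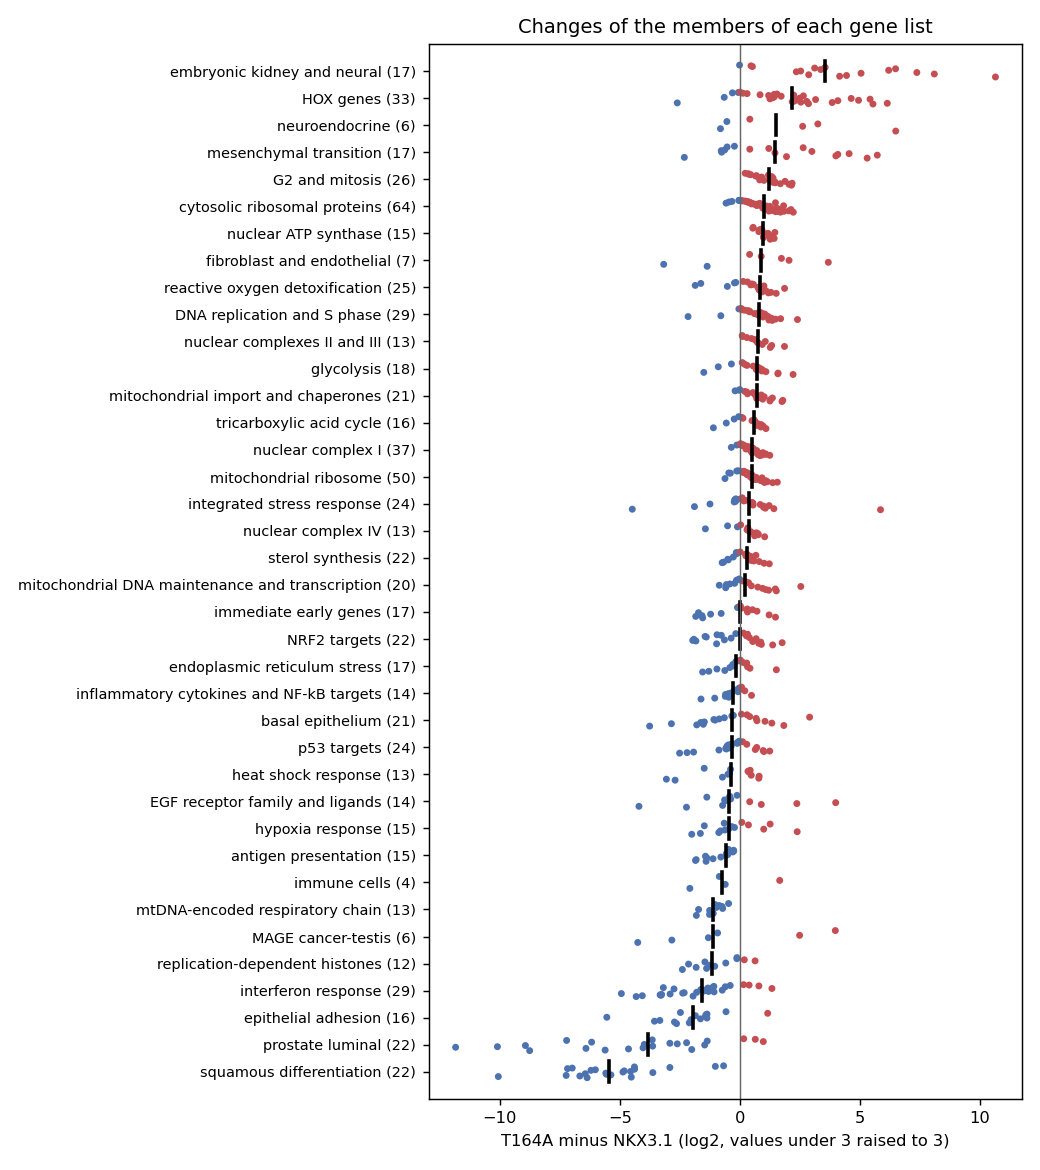
Difference (T164A minus NKX3.1, log2, values under 3 raised to 3) of each tested member of 38 gene lists, 1 point a gene, with the black bar at the list's median and the number of tested members in brackets. Lists of luminal, squamous and junction genes lie to the left with medians of -3.82, -5.47 and -1.95, and the embryonic and HOX lists to the right with 3.55 and 2.18.

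Transcripts of mitochondrial DNA were lower in T164A-labelled libraries while nuclear genes of the same complexes were mostly higher. All 13 mtDNA-encoded genes fell, 8 of them by at least 2-fold (21.1% over all genes), with a median of -1.11. Under quantile normalization MT-ND5 was instead higher, by 0.19, and MT-CO1 and MT-CO3, whose ranks did not differ, were at 0. The 13 genes took 7.67% ± 0.0846 of the summed signal in the 4 T164A-labelled libraries and 15.6% ± 0.782 in the 6 NKX3.1 libraries (SD). The difference was -7.97 percentage points, with an exact permutation p of 0.00952 (two-sided), the smallest that the 210 splits of these libraries allow. The share was 6.15% to 6.69% in R52C libraries and 15.1% to 17.0% in empty vector libraries.

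Among the mtDNA genes, the complex I subunit MT-ND3 stood at 13.89, 13.80, 13.77 and 13.86 in T164A-labelled libraries, against 15.50 at the lowest, 15.64 at the median and 15.78 at the highest in NKX3.1 libraries, a fall of 1.82 (SE 0.043, adjusted p = 5.94e-19). MT-ND5, another subunit of complex I, stood at 16.85, 16.77, 16.78 and 16.77 in T164A-labelled libraries, against 17.16 at the lowest, 17.28 at the median and 17.33 at the highest in NKX3.1 libraries, and fell least, by 0.47 (adjusted p = 1.13e-10). The groups did not overlap for either gene. The other complex I subunits MT-ND1, MT-ND2, MT-ND4, MT-ND4L and MT-ND6 fell by 0.99, 1.20, 1.11, 0.75 and 0.72. The cytochrome b gene MT-CYB of complex III fell by 1.27, and the cytochrome oxidase genes MT-CO1, MT-CO2 and MT-CO3 by 1.18, 1.04 and 1.26. The ATP synthase genes MT-ATP6 and MT-ATP8, which overlap on the same strand, fell by 0.87 and 1.72.

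**Figure D5:**
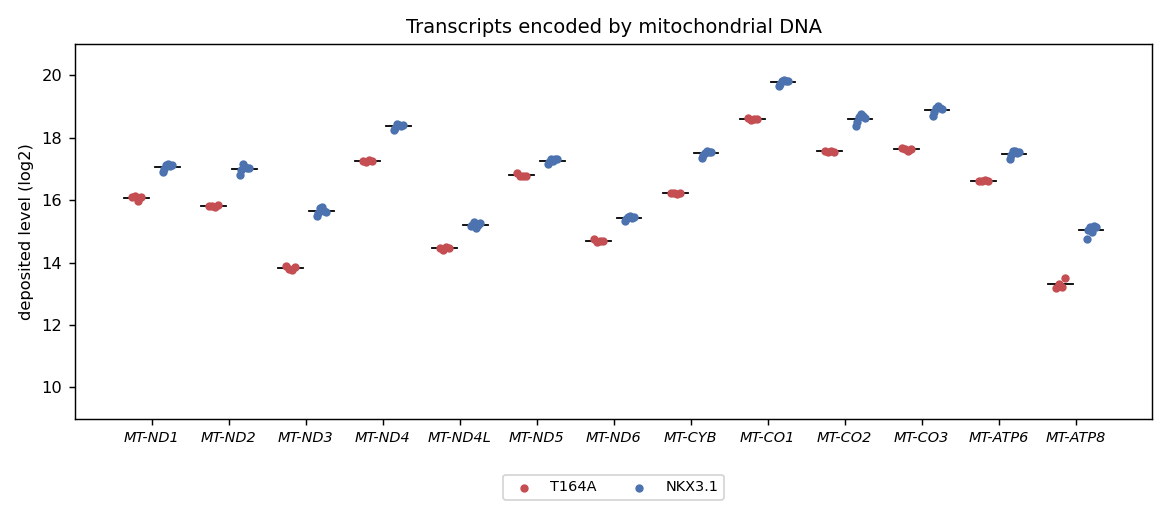
Deposited log2 level of the 13 mtDNA-encoded genes (vertical axis, from 9 to 21) in each T164A-labelled and NKX3.1 library, with bars at group means. The 4 T164A-labelled libraries lie under the 6 NKX3.1 libraries in every gene, by 0.47 for MT-ND5 up to 1.82 for MT-ND3 on the deposited scale, while under quantile normalization MT-ND5 turned round and MT-CO1 and MT-CO3 did not differ.

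Nuclear genes of the respiratory chain mostly went the other way. Of 37 complex I genes, 31 rose and 2 fell, with a median of 0.51, where 42.8% of all genes were called in each direction. NDUFB11, an accessory subunit, stood at 10.56, 10.56, 10.49 and 10.55 in T164A-labelled libraries, against 9.14 at the lowest, 9.36 at the median and 9.41 at the highest in NKX3.1 libraries, a rise of 1.24 (adjusted p = 4.14e-15). NDUFB10 and NDUFS5 rose by 0.83 and 0.92. Complexes II and III had 12 of 13 genes higher and none lower, with UQCR10 at 1.85, SDHC at 1.32, SDHB, the iron-sulphur subunit of succinate dehydrogenase, at 1.26 and UQCRH at 0.93. Complex IV had 9 of 13 genes higher and 2 lower. COX5A had the largest rise, at 1.03, and COX7A2L, COX8A and COX7C, named for their small p, rose by 0.76, 0.75 and 0.61. The largest change in that list was a fall, by 1.44. All 15 nuclear ATP synthase genes rose, with a median of 0.98. ATP5B, the catalytic beta subunit, stood at 14.39, 14.37, 14.38 and 14.37 in T164A-labelled libraries, against 13.34 at the lowest, 13.42 at the median and 13.43 at the highest in NKX3.1 libraries, a rise of 0.98 (adjusted p = 3.32e-18). ATP5G2 and ATP5G3, copies of the c subunit, rose by 1.42 and 1.26, and ATP5C1, the gamma subunit, by 0.98.

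Genes that build and maintain mitochondria rose in most cases. The import and chaperone list had 18 of 21 genes higher and 1 lower, with a median of 0.70. TOMM40, the channel of the outer membrane, stood at 10.62, 10.64, 10.71 and 10.60 in T164A-labelled libraries, against 8.73 at the lowest, 8.87 at the median and 8.97 at the highest in NKX3.1 libraries, a rise of 1.78 (adjusted p = 4.19e-18). The receptors TOMM22 and TOMM20 rose by 1.75 and 1.25, and TIMM50 of the inner membrane by 1.25. For mitochondrial DNA maintenance and transcription, 12 of 20 genes rose and 6 fell, with a median of 0.23. POLRMT, the mitochondrial RNA polymerase, rose by 1.20 (adjusted p = 5.36e-15), SSBP1, which binds single-stranded mtDNA, by 1.51, TFB1M, a methyltransferase of mitochondrial ribosomal RNA, by 1.47 and the nucleoside kinase DGUOK by 1.08. Of 50 mitochondrial ribosomal proteins, 45 rose and 3 fell, with a median of 0.49, and MRPL23, MRPL28, MRPL37 and MRPL3 rose by 1.56, 1.36, 1.02 and 1.01.

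Paraquat raises superoxide, and enzymes that remove it and its products were mostly higher in T164A-labelled libraries. Of 25 detoxification genes, 20 rose and 5 fell, with a median of 0.83. The summed level was 15.84 to 15.86 in T164A-labelled libraries and 15.11 to 15.24 in NKX3.1 libraries. It was 15.85 to 15.93 in R52C and 14.96 to 15.17 in empty vector libraries, so the higher level was not particular to T164A-labelled libraries. SOD1, the cytosolic superoxide dismutase, stood at 11.95, 11.90, 11.91 and 11.95 in T164A-labelled libraries, against 10.34 at the lowest, 10.41 at the median and 10.54 at the highest in NKX3.1 libraries, a rise of 1.51 (SE 0.037, adjusted p = 1.51e-18). SOD2, the dismutase of the mitochondrial matrix, stood at 11.12, 11.16, 11.20 and 11.16 in T164A-labelled libraries, against 10.20 at the lowest, 10.23 at the median and 10.27 at the highest in NKX3.1 libraries, a rise of 0.92 (SE 0.030, adjusted p = 1.12e-16). Neither dismutase overlapped between the groups. The extracellular dismutase SOD3 was under 3 in every T164A-labelled library and at least 3.64-fold lower. PRDX6, a peroxiredoxin, rose by 1.18 and TXN2, the mitochondrial thioredoxin, by 1.29.

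Targets of NRF2, the factor that answers oxidants, were called at about the share of all genes, 42.8% each way, with 11 of 22 genes higher and 11 lower and a median of -0.01. The drug exporter ABCC3 rose by 1.36 (adjusted p = 9.91e-18), and TKT and PGD of the pentose phosphate pathway by 0.89 and 0.78. SLC7A11, the cystine importer, stood at 11.03, 11.07, 11.11 and 11.14 in T164A-labelled libraries, against 11.97 at the lowest, 12.09 at the median and 12.11 at the highest in NKX3.1 libraries, and fell by 0.97 (adjusted p = 1.98e-16). AKR1B10, an aldo-keto reductase, was under 3 in every T164A-labelled library and at least 2.74-fold lower. Without untreated libraries to set beside them, these are levels under paraquat and not responses to it.

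Several stress lists had calls in both directions, beside 42.8% of all genes each way. The integrated stress response, which links mitochondrial and nutrient stress to the factor ATF4, had 16 of 24 genes higher and 8 lower, with a median of 0.37. ALDH1L2, a mitochondrial enzyme of the folate cycle, stood at 10.996, 10.96, 10.95 and 11.09 in T164A-labelled libraries, against 4.85 at the lowest, 5.11 at the median and 5.46 at the highest in NKX3.1 libraries, a rise of 5.85 (SE 0.099, adjusted p = 3.86e-21). MTHFD2, of the same cycle, rose by 1.41 and the serine synthesis enzyme PHGDH by 1.06. GDF15, a secreted stress cytokine, stood at 8.83, 8.88, 8.30 and 8.71 in T164A-labelled libraries, against 13.04 at the lowest, 13.12 at the median and 13.38 at the highest in NKX3.1 libraries, and fell by 4.49 (SE 0.084, adjusted p = 1.77e-20). The GDF15 mean was 14.45 in R52C and 11.75 in empty vector libraries, so T164A-labelled libraries had the lowest of the 4 means.

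Of 17 endoplasmic reticulum genes, 6 rose and 9 fell, again near the 42.8% of all genes called each way. HSPA5, the main chaperone of that compartment, fell by 1.30 (adjusted p = 1.97e-18), SEL1L, of the degradation machinery, by 1.56 and CALR, which encodes calreticulin, by 0.63, while SDF2L1 rose by 1.52. Of 13 heat shock genes, 6 rose and 7 fell, likewise near that share. HSPB1, a small heat shock protein, fell by 2.70 (adjusted p = 2.71e-22) and HSPA8, a constitutive chaperone, by 0.73, while HSP90AB1 rose by 0.78. HSPA1A fell by 3.06, but it has a near-identical copy, HSPA1B, and the split of reads between them is uncertain. Among 24 targets of p53, 6 rose and 16 fell. CDKN1A, the p21 cell cycle inhibitor, stood at 10.91, 11.05, 10.93 and 10.89 in T164A-labelled libraries, against 13.38 at the lowest, 13.46 at the median and 13.55 at the highest in NKX3.1 libraries, and fell by 2.51 (SE 0.035, adjusted p = 2.50e-22). SFN, an epithelial 14-3-3 protein, fell by 2.20 and TP53INP1 by 1.93, while CCNG1 rose by 0.997.

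Cell cycle genes were higher in T164A-labelled libraries. All 26 genes of G2 and mitosis rose, with a median of 1.23, and of 29 genes of DNA replication 23 rose and 2 fell, with a median of 0.81. CDC20, the activator of the anaphase-promoting complex, stood at 11.38, 11.49, 11.40 and 11.43 in T164A-labelled libraries, against 9.18 at the lowest, 9.28 at the median and 9.35 at the highest in NKX3.1 libraries, a rise of 2.14 (SE 0.037, adjusted p = 5.84e-21). PLK1, a mitotic kinase, stood at 11.59, 11.64, 11.55 and 11.61 in T164A-labelled libraries, against 9.46 at the lowest, 9.57 at the median and 9.61 at the highest in NKX3.1 libraries, a rise of 2.04 (SE 0.036, adjusted p = 6.07e-21). BIRC5, which encodes survivin, rose by 2.14 and the checkpoint kinase BUB1 by 1.68. In S phase, the helicase loader partner CDC45 rose by 2.39 and the helicase subunits MCM5, MCM2 and MCM7 by 1.48, 1.34 and 1.20. Replication-dependent histones, whose main transcripts lack a poly-A tail and are poorly caught by this library type, had 1 of 12 genes higher and 8 lower, with HIST1H4H, HIST1H2BD, HIST1H2AC and HIST2H2BE down by 2.40, 1.82, 1.39 and 1.05.

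Promoters of 3 genes of mitosis are shown because the whole list moved one way. They come from RefSeq on GRCh38.p14 and hold the 250 bases before the start of CDC20 at chr1:43358731-43358980, PLK1 at chr16:23678639-23678888 and CDK1 at chr10:60778081-60778330, all on the plus strand. Capitals mark TTTGAA, the core of the cell cycle homology region, and CCAAT, the box bound by NF-Y, on either strand.
CDC20: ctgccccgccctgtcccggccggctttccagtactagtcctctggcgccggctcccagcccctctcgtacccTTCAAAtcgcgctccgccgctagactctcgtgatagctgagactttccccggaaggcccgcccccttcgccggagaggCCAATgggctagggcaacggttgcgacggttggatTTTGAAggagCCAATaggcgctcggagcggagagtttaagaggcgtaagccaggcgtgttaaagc
PLK1: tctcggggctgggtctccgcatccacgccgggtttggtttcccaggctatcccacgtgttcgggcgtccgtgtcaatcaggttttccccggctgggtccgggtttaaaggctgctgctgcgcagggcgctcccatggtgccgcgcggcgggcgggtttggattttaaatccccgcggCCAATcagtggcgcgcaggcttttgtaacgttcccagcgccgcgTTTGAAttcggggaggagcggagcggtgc
CDK1: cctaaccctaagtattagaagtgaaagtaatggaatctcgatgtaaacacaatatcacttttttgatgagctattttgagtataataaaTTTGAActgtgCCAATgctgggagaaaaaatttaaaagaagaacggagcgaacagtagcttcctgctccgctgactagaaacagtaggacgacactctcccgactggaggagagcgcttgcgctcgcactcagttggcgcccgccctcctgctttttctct
CDK1, the mitotic kinase itself, was chosen for its sequence after its value was seen, and rose by 0.35 (adjusted p = 3.12e-08). Of 26 genes in the list, 21 matched a RefSeq promoter, 10 of them held TTTGAA (47.6%) and 18 held CCAAT (85.7%). Over the 11557 promoters of tested genes the shares were 8.61% and 34.8%. A match describes the letters only, and no binding was measured.

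Ribosome and glycolysis genes rose as well. Of 64 cytosolic ribosomal proteins, 58 rose and 3 fell, with a median of 1.01. RPS4X, a protein of the small subunit, stood at 14.63, 14.64, 14.64 and 14.64 in T164A-labelled libraries, against 12.36 at the lowest, 12.40 at the median and 12.55 at the highest in NKX3.1 libraries, a rise of 2.22 (adjusted p = 3.35e-22). RPS13 and RPL13 rose by 1.67 and 1.48, and since ribosomal protein genes have many processed pseudogenes, their levels depend on how shared reads were counted. Of 18 glycolysis genes, 15 rose and 3 fell. LDHB, a lactate dehydrogenase subunit, stood at 14.03, 14.03, 14.06 and 14.03 in T164A-labelled libraries, against 11.76 at the lowest, 11.81 at the median and 11.95 at the highest in NKX3.1 libraries, a rise of 2.21 (adjusted p = 4.28e-22). TPI1 and ENO1 rose by 1.59 and 1.58, while SLC2A1, the main glucose transporter, fell by 1.51 (adjusted p = 8.82e-20). Of 16 genes of the tricarboxylic acid cycle, 12 rose and 3 fell, with MDH2, IDH3G and DLST up by 1.08, 0.97 and 0.87 and the cytosolic IDH1 down by 1.11.

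Interferon-stimulated genes were lower in T164A-labelled libraries. Of 29 genes, 25 fell and 4 rose, with a median of -1.58. IFI27 stood at 6.19, 6.24, 6.11 and 5.89 in T164A-labelled libraries, against 10.37 at the lowest, 10.43 at the median and 10.48 at the highest in NKX3.1 libraries, a fall of 4.32 (SE 0.059, adjusted p = 1.81e-22). OAS1, which senses double-stranded RNA, stood at 5.19, 5.40, 5.49 and 5.37 in T164A-labelled libraries, against 9.29 at the lowest, 9.46 at the median and 9.53 at the highest in NKX3.1 libraries, a fall of 4.07 (SE 0.072, adjusted p = 7.35e-21). OAS3, of the same family, fell by 1.95 and MX1, an antiviral GTPase, by 3.29. The summed level was 13.04 to 13.12 in T164A-labelled libraries and 14.51 to 14.61 in NKX3.1 libraries, beside 14.79 to 14.88 in empty vector and 12.84 to 12.89 in R52C libraries. All 15 of 15 antigen presentation genes fell, with a median of -0.58. B2M, the light chain of class I molecules, fell by 1.12 (adjusted p = 3.57e-17), the peptide trimming enzymes ERAP1 and ERAP2 by 1.41 and 1.85, and NLRC5, the activator of class I genes, by 1.82.

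Promoters of 3 interferon genes are shown for the element that these genes share. IFI6 at chr1:27672193-27672442 lies on the minus strand, and IFIT1 at chr10:89392373-89392622 and ISG15 at chr1:1013247-1013496 on the plus strand of GRCh38.p14, each with the 250 bases before its start from RefSeq. Capitals mark GAAANNGAAA, a core of the interferon-stimulated response element, on either strand, and the matches in ISG15 overlap.
IFI6: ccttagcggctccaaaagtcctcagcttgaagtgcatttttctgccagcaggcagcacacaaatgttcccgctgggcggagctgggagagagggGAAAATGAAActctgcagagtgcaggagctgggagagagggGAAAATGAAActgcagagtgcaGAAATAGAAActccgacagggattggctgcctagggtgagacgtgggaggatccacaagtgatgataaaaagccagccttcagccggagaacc
IFIT1: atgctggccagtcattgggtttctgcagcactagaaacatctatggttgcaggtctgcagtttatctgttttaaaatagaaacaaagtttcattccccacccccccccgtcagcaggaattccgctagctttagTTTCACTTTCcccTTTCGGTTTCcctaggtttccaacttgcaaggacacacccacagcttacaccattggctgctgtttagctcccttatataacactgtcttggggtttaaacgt
ISG15: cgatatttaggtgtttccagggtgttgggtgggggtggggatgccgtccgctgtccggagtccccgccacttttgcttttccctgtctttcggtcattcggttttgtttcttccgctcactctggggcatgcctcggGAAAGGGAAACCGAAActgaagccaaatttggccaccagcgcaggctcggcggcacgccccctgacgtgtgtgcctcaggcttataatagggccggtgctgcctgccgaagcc
These 3 were picked for their sequence after their values were seen, and IFI6, IFIT1 and ISG15 fell by 3.32, 1.31 and 0.41 in T164A-labelled libraries. Of 29 genes, 21 matched a RefSeq promoter and 14 of these held the element (66.7%), beside 2.33% of the promoters of tested genes. The element is how many such genes are known, so its share describes the list and not the difference between the groups.

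Among receptors of the EGF family, ERBB4 was detected in T164A-labelled libraries alone of the pair of groups. ERBB4 stood at 6.98, 7.09, 6.89 and 6.98 in T164A-labelled libraries, against -0.72 at the lowest, 0.57 at the median and 1.54 at the highest in NKX3.1 libraries, at least 15.8-fold higher in T164A-labelled libraries. ERBB3 stood at 9.45, 9.37, 9.26 and 9.42 in T164A-labelled libraries, against 11.56 at the lowest, 11.61 at the median and 11.64 at the highest in NKX3.1 libraries, and fell by 2.23 (adjusted p = 2.06e-21). ERBB2 fell by 0.72 and the feedback inhibitor ERRFI1 rose by 0.89. The ligands EPGN and BTC were at least 18.5-fold and 2.6-fold lower in T164A-labelled libraries. Of the 14 genes listed, 4 rose and 9 fell, beside 42.8% of all genes called each way.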

How the data were processed

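Poly-A RNA of 22 RWPE1 libraries was prepared with the Illumina TruSeq kit and sequenced on a HiSeq2000, per the labels' protocols. Tools listed in the submitters' processing notes are DESeq, Cufflinks, TopHat and CASAVA 1.8.2, and the builds are GRCh37 and mm9, with mm9 alone for the T164A libraries. The authors deposited 1 table of normalized log2 values, and the normalization is not given in the sources used here, nor is depth in reads. Of 56299 rows, 3473 had no gene name, and for 501 repeated symbols the row with the highest mean was kept, which left 49149 genes. Rows with a mean under 0 over the 10 libraries (13922) had a mean of -0.27, an SD of 0.989 and a 99.9th percentile of 2.70, hence the floor of 3. All libraries differed in their values.

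The log2 values that the authors deposited for the 10 libraries were fitted, unscaled, in limma 3.58.1 (R 4.3.3), with a mean per group and moderated variances with a trend on expression. Tests were two-sided, genes were called at an adjusted p under 0.05 over all genes tested, and the procedure was tested on simulated data. Count models were not used. Bounds raise values under 3 to 3. Summed levels are log2 of the summed linear values of a list.

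The libraries, the lists and the rule for naming genes were chosen with earlier results of these data known, and lists are described, not tested. The rule took, from regular symbols without XIST and Y-linked genes, the 12 highest genes under 3 in every library of the other group each way, the 12 largest changes each way among called genes above 5 in all 10 libraries without overlap, up to 4 members of each list with the smallest p, any member under 3 in a whole group, the mtDNA genes, KRT5 and TP63. Some genes that the rule took, and a check of the group labels by them, are not reported here. Alternatives were fits with all 22 libraries, other filters, floor, scalings and variance model, repeated symbols left out, and each library left out in turn. Promoters came from a RefSeq table of GRCh38.p14, which is not the build of the files, and no coordinates of the files were used.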

Additional observations from a re-analysis of the deposited data

Results flagged for a closer look

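Within a group of 4 or 6 libraries, a value was set apart when the gap to its nearest neighbour took more of the group's range than Dixon's 95% critical value. Chance gives this for about 1 in 20 groups, and 11 values met it among 379 groups screened over 212 named genes and the mtDNA share, or 2.9%, under that rate. Each gap is smaller than the difference between the groups in that gene. In the T164A-labelled libraries, LDHB was at 14.06 in replicate 3, against 14.03 in the others. IDH3G was at 10.18 in replicate 1, against 10.23 to 10.24. MAGEA12 was at 4.71 in replicate 3, against 5.31 to 5.33.

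In the NKX3.1 libraries, replicate 4 was highest for SLPI (12.06, against 11.80 to 11.88), SDHB (9.88, against 9.73 to 9.78), HIST1H2AC (9.89, against 9.79 to 9.81) and B2M (13.31, against 13.09 to 13.17). Replicate 3 was lowest for DUSP9 (5.02, against 5.41 to 5.60) and TKT (11.91, against 12.04 to 12.06). TRPM8 was highest in replicate 1, at 7.08 against 6.39 to 6.64. AKR1B10 was lowest in replicate 2, at 3.36 against 4.38 to 4.96. Of these 11 values, 4 came from NKX3.1 replicate 4, 2 from NKX3.1 replicate 3 and 2 from T164A replicate 3.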

How the results depend on the processing

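No paired analysis was possible because the labels give no replicate numbers that libraries of the 2 groups could share. Leaving out each library in turn gave 17011 to 17275 called genes, 8511 to 8640 of them higher and 8500 to 8637 lower, against 17305 with all 10. The difference in the mtDNA share lay between -8.25 and -7.84 percentage points. The 22-library fit called 17627 genes, no filter 19524 of all 49149 named genes and the filter above 5 14430. The last gave 2780 falls of at least 2-fold in place of 4262. These 3 settings test other numbers of genes than the 20214 of the main fit. Their counts are thus not comparable with its 17305, which were 85.6% of the genes tested. Restricting the fit to genes under 3 in every R52C library, which was chosen after the data were seen, left 2022 called genes, 1221 higher and 801 lower (60.4% higher), 1106 and 643 of them by at least 2-fold and 1853 without overlap, with a median difference of 0.77 over those tested. That setting keeps far fewer genes by its construction. The number tested in it is not given here, so its counts cannot be set beside the shares over all genes. It keeps 696 of the 835 genes under 3 in every NKX3.1 library. Of the 990 genes under 3 in every T164A-labelled and above 3 in every NKX3.1 library, it can keep 218. The 60.4% and the median of 0.77 are thus not independent of that choice.

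Among single genes, 3835 recomputed values kept their direction and call, 4 lost the call and 1 turned round. The 4 were KRT5 and TP63 in the 22-library fit and MT-CO1 and MT-CO3 under quantile normalization, where MT-ND5 reached 0.19. Of list medians, 587 moved by less than the spread between libraries, 102 by more, and 12 changed sign. MAGE genes turned to 0.67 without a filter and to 6.45 in genes under 3 in every R52C library, where the immune list reached 0.46 and the hypoxia list 1.34. With the filter above 5, fibroblast and endothelial genes turned to -1.37, NRF2 targets to 0.14 and immediate early genes to -0.015. The immediate early median was also -0.11 under either other scaling and between -0.0075 and 0.066 when libraries were left out. The cause was not tested. Depth limits are unknown, and under the floor nothing can be said about levels.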

Other observations

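Further lists held genes outside the programmes described above, and their counts stand beside 42.8% of all genes called each way. Sterol synthesis was mixed, with 13 of 22 genes higher and 8 lower in T164A-labelled libraries and a median of 0.28. NSDHL, an enzyme of the late pathway, averaged 9.71 ± 0.051 in T164A-labelled libraries and 8.48 ± 0.058 in NKX3.1 libraries (SD), a rise of 1.22 (adjusted p = 8.31e-16), and INSIG1, which holds back the pathway's activator, rose by 1.005. Of 15 hypoxia genes, 5 rose and 10 fell. VEGFA, the angiogenic growth factor, averaged 11.88 ± 0.057 in T164A-labelled libraries and 13.52 ± 0.029 in NKX3.1 libraries, a fall of 1.65 (adjusted p = 4.82e-21), and the collagen hydroxylase P4HA2 fell by 0.88, while the glucose transporter SLC2A3 rose by 2.38 (adjusted p = 1.74e-13).

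Of 20 inflammatory genes, 14 were tested, 1 rose, 8 fell and 5 were not called. IL1A and IL1B, the epithelial interleukin 1 genes, fell by 1.62 and 1.05 (adjusted p = 3.39e-15 and 4.60e-10), and the feedback inhibitors TNFAIP3 and NFKBIA by 0.61 and 0.47. Immediate early genes had 8 of 17 higher and 6 lower, near the 42.8% of all genes called each way. JUN averaged 11.999 ± 0.029 in T164A-labelled libraries and 10.52 ± 0.064 in NKX3.1 libraries, a rise of 1.48 (adjusted p = 4.48e-19), while its relatives JUNB and FOSL2 fell by 1.58 and 1.55 and the epithelial factor KLF4 by 1.84. Of 11 MAGE cancer-testis genes, 6 were tested. MAGEB2 was at least 15.7-fold higher in T164A-labelled libraries and MAGEA1 rose by 2.48, whereas MAGEA10, MAGEA12 and MAGEA3 fell by 4.26, 2.84 and 1.32. MAGEA genes are near-identical copies, and the split of reads between them is uncertain.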
